A study of Homo sapiens with 14 samples.

Results

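The integrated stress response genes described here are 10 genes, ATF4, DDIT3, ATF3, TRIB3, PPP1R15A, ASNS, CHAC1, SESN2, DDIT4 and VLDLR, and each was found by its symbol as 1 row among the 21574 rows of the RPKM table. They were measured in cells labelled HepG2, a human hepatocellular carcinoma line, that received scrambled siRNA (control) or siRNA against ADAR1 (KD), the enzyme that converts adenosine to inosine in double-stranded RNA. The study asked how loss of ADAR1 affects RNA secondary structure. For PARS-seq, folded poly-A RNA was cut in vitro with S1 nuclease at unpaired bases or with RNase V1 at paired bases, giving 8 libraries, 2 for each enzyme and condition. Ribo-seq, which sequences ribosome-protected fragments, had 2 libraries per condition, and RNA-seq had 1. The labels and the study's methods call the transfection stable, and the methods also limit the silencing to a set time. The study calls its replicates biological, but neither its methods nor the labels say whether they came from separate cultures, so p-values measure only the spread between these libraries.

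In the integrated stress response, kinases that sense misfolded protein, amino acid shortage, double-stranded RNA or heme deficiency phosphorylate the initiation factor eIF2. Most translation then falls, while ATF4 mRNA, which carries short upstream reading frames, is translated better. ATF4 and the factors it induces switch on genes for amino acid supply and tRNA charging, and also genes that end the response or lead to cell death.

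ADAR, the targeted gene, was read first. Its PARS-seq levels were 40.7 and 46.8 RPKM in control and 15.1 and 15.1 RPKM in KD, and RNA-seq gave 54.8 and 15.4 RPKM. In Ribo-seq it was 43.6 RPKM in control replicate 1 and 8.73 RPKM in KD replicate 1, but 55.5 RPKM in control replicate 2 and 44.03 RPKM in the library labelled KD replicate 2, so ADAR in that library was not below both controls. Of the 6 hepatocyte markers, ALB, APOA1, APOB, TTR and SERPINA1 reached at most 0.0821 RPKM in any library, HNF4A reached 0.803 RPKM in a row shared with a microRNA, and AFP reached 0.0286 RPKM, so the defining liver genes were near 0 in cells labelled HepG2. The fibroblast markers COL1A1 and COL3A1 reached 54.7 and 96.2 RPKM, and PTPRC and PECAM1 stayed at or below 0.0892 RPKM. The summed level of the 2 fibroblast markers was 116 and 101 RPKM in control and 86.7 and 67.6 RPKM in KD by PARS-seq, 68.6 and 46.5 RPKM by RNA-seq, and 30.05 and 45.6 RPKM in control against 23.0 and 46.7 RPKM in KD by Ribo-seq. Their part in the differences below was not tested, and in bulk samples fewer cells of a type and less RNA per cell cannot be told apart. Ribo-seq was shallow, with 995682 to 3322918 reads behind the RPKM values of a library, against 30209865 and 40729941 reads for RNA-seq. Across 10882 genes, Ribo-seq libraries with the same replicate number ranked genes more alike (Spearman's rho 0.950 and 0.933) than libraries of the same condition did (0.757 and 0.824). Genes are not independent replicates, and no test was made of these values.

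The members lie on 9 chromosomes (GRCh37 coordinates, GENCODE annotation). ATF4 is at chr22:39915700-39918688 on the plus strand, TRIB3 at chr20:343479-378203 on the plus strand and CHAC1 at chr15:41245160-41248710 on the plus strand. DDIT3 is at chr12:57910371-57915520 on the minus strand, where its exons share up to 355 bases with exons of other genes, among them MARS1 and MBD6 on the opposite strand. ASNS, at chr7:97480989-97501854 on the minus strand, overlaps a lncRNA of the same strand, and VLDLR, at chr9:2621182-2660056 on the plus strand, overlaps VLDLR-AS1 on the opposite strand. The stated gene counting of RNA-seq, Ribo-seq and PARS-seq uses no strand, and the partner of ASNS lies on its own strand. In the RPKM of all assays, reads in the bases that these 3 genes share with their partners therefore cannot be told apart. The overlaps are those of the GENCODE annotation, while the study counted RefSeq genes. ATF3 (chr1:212738676-212794119), SESN2 (chr1:28586029-28609002), PPP1R15A (chr19:49375469-49379316) and DDIT4 (chr10:74033678-74035794), all on the plus strand, overlap no exon of another annotated gene.

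ATF4 binds a composite element in many of its target promoters. The letters TGATGNAA were searched on both strands in RefSeq promoters (GRCh38.p14, 250 bases before to 50 bases after each start), which were found for all 10 members. They occurred in 3 of the 10, against 1217 of 27305 genes (4.46%) and 1270 of 35116 promoters (3.62%). The windows of 30 bases around these matches are shown along the gene's strand with the matched letters in capitals.
ASNS, minus strand, chr7:97872458-97872487: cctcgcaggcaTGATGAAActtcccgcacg
CHAC1, plus strand, chr15:40953251-40953280: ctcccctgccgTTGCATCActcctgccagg
ATF3, plus strand, chr1:212565205-212565234: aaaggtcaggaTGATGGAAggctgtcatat
The match in CHAC1 lies on the opposite strand and reads TGATGCAA there. The first capital lies 68 bases before the start in ASNS, 209 in CHAC1 and 191 in ATF3. A match describes the letters only, and ATF4 binding was not measured. Among the genes whose promoters hold a match, ASNS and CHAC1 had higher PARS-seq levels in KD and ATF3 lower ones (below). Among the other lists used below, the same letters were found in 6 of 10 tRNA charging genes, 3 of 11 genes of amino acid supply, 3 of 8 other ATF4 targets, 1 of 12 core genes and 1 of 10 genes of the other unfolded protein response arms with a promoter in the table. ATF4, DDIT3, TRIB3, PPP1R15A and VLDLR, whose PARS-seq KD values also lay above both control values, do not hold these letters in this window. Neither do SESN2 and DDIT4.

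The members differed widely in level, and per-length RPKM values allow their order to be read. DDIT4 had the highest level of the 10 in every column, from 129 RPKM (Ribo-seq control replicate 2) to 295 RPKM (PARS-seq control replicate 1). By PARS-seq and RNA-seq ATF4 followed, from 93.0 to 166 RPKM. ASNS and TRIB3 came next in all 4 PARS-seq columns, whereas in RNA-seq TRIB3 and PPP1R15A held these places and ASNS ranked 7 of 10 in both libraries. CHAC1 had the lowest PARS-seq level in both controls, and SESN2 had the lowest in both KD columns. The neighbours ASNS and TRIB3 were 28.2 and 30.5 RPKM against 22.6 and 29.4 RPKM in the PARS-seq controls, so their ranges overlapped, as did those of ATF3 (17.2 and 16.7 RPKM) and PPP1R15A (16.7 and 17.0 RPKM), and of VLDLR (9.84 and 6.94 RPKM) and SESN2 (8.87 and 9.42 RPKM).

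**Figure D1:**
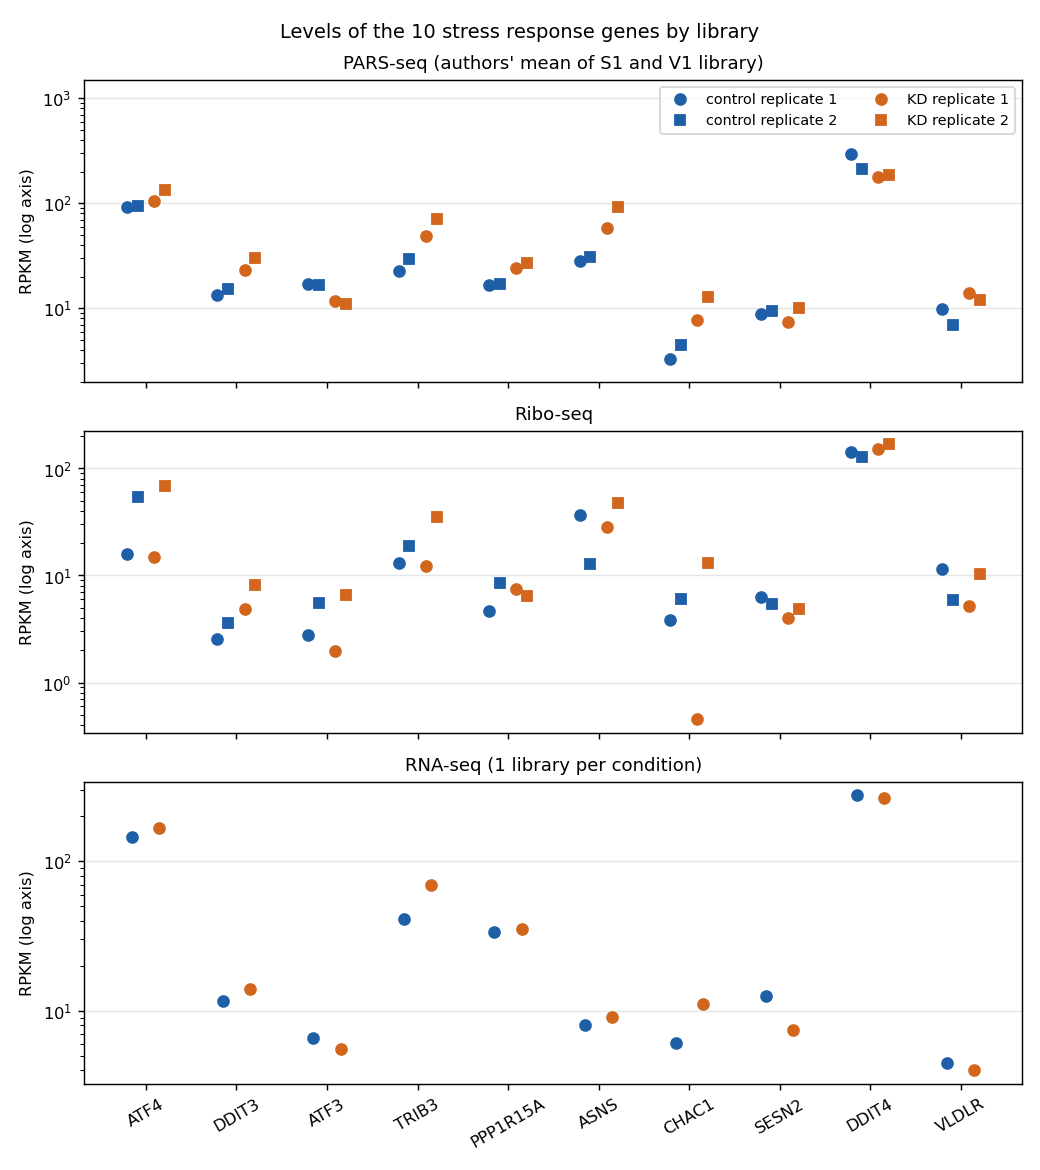
RPKM on a log axis for each of the 10 genes in PARS-seq (top), Ribo-seq (middle) and RNA-seq (bottom), with control libraries in blue, KD libraries in orange and the replicate number given by the symbol. DDIT4 is highest in each panel, and the PARS-seq KD values of DDIT3, TRIB3, ASNS and CHAC1 lie above both control values.

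In PARS-seq, where the deposited RPKM of each replicate is the authors' mean of an S1 and a V1 library, 7 of the 10 members had both KD values above both control values and 2 had both below, and the same members were higher or lower within each replicate pair. Over the 11153 genes with a mean of at least 1 RPKM, 33.3% and 27.1% did not overlap in these directions, and 45.1% and 36.9% kept 1 direction in both pairs. With 1 RPKM added to each value, 4 of the 10 members (ASNS, CHAC1, DDIT3 and TRIB3) were more than 1.5-fold higher in KD in both replicates, against 5.88% of all genes, and 0 were more than 1.5-fold lower, against 6.05%. The members' median log2 ratio of KD to control was 0.49 in replicate 1 and 0.69 in replicate 2, against 0.04 and 0.04 over all genes. The members were chosen with earlier results of these data known, so these comparisons with all genes describe them and test nothing. A limma fit to the 2 control and 2 KD columns, chosen after seeing the data, called 5 members higher in KD (8.06% of all genes) and 0 lower (7.43%). On the log2(RPKM + 1) scale ASNS rose by 1.28 ± 0.23 (SE, limma adjusted p = 0.01083), CHAC1 by 1.18 ± 0.24 (limma adjusted p = 0.01665), TRIB3 by 1.17 ± 0.23 (limma adjusted p = 0.01374), DDIT3 by 0.85 ± 0.19 (limma adjusted p = 0.02243) and PPP1R15A by 0.58 ± 0.16 (limma adjusted p = 0.04747). The differences of ATF3 (−0.54, limma adjusted p = 0.05276), VLDLR (0.60, limma adjusted p = 0.07205), DDIT4 (−0.45, limma adjusted p = 0.1938), ATF4 (0.32, limma adjusted p = 0.2775) and SESN2 (−0.075, limma adjusted p = 0.8054) did not pass. Without the filter on low values 0 members passed (1.16% and 1.71% of 19048 genes), with limma adjusted p between 0.0814 and 0.1237 for these 5. PPP1R15A did not pass without any 1 of the 4 columns (limma adjusted p of 0.06731 to 0.2423) or with centred libraries (0.06013), and DDIT3 did not pass without KD replicate 2 (0.66, limma adjusted p = 0.08767). With centred libraries ATF3 passed (limma adjusted p = 0.04269). This fit ignores the replicate number. With a replicate block ATF3, VLDLR and DDIT4 passed, while many more of all genes were called too, as given in the closing section. The difference of VLDLR ran from 0.37 without control replicate 2 (limma adjusted p = 0.2891) to 0.82 without control replicate 1 (limma adjusted p = 0.01187). That of DDIT4 ran from −0.69 without control replicate 2 (limma adjusted p = 0.0384) to −0.20 without control replicate 1 (limma adjusted p = 0.7359), and that of ATF4 from 0.15 without KD replicate 2 to 0.495 without KD replicate 1, where it did not pass either.

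RNA-seq placed 2 members (CHAC1 and TRIB3) more than 1.5-fold higher in KD, against 4.47% of all genes, and 1 member (SESN2) lower, against 4.66% of all genes, with a median log2 ratio of 0.11 for the members and −0.01 for 10946 genes. With 5 RPKM added instead, chosen after seeing the data, these RNA-seq counts were 1 and 0.

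**Figure D2:**
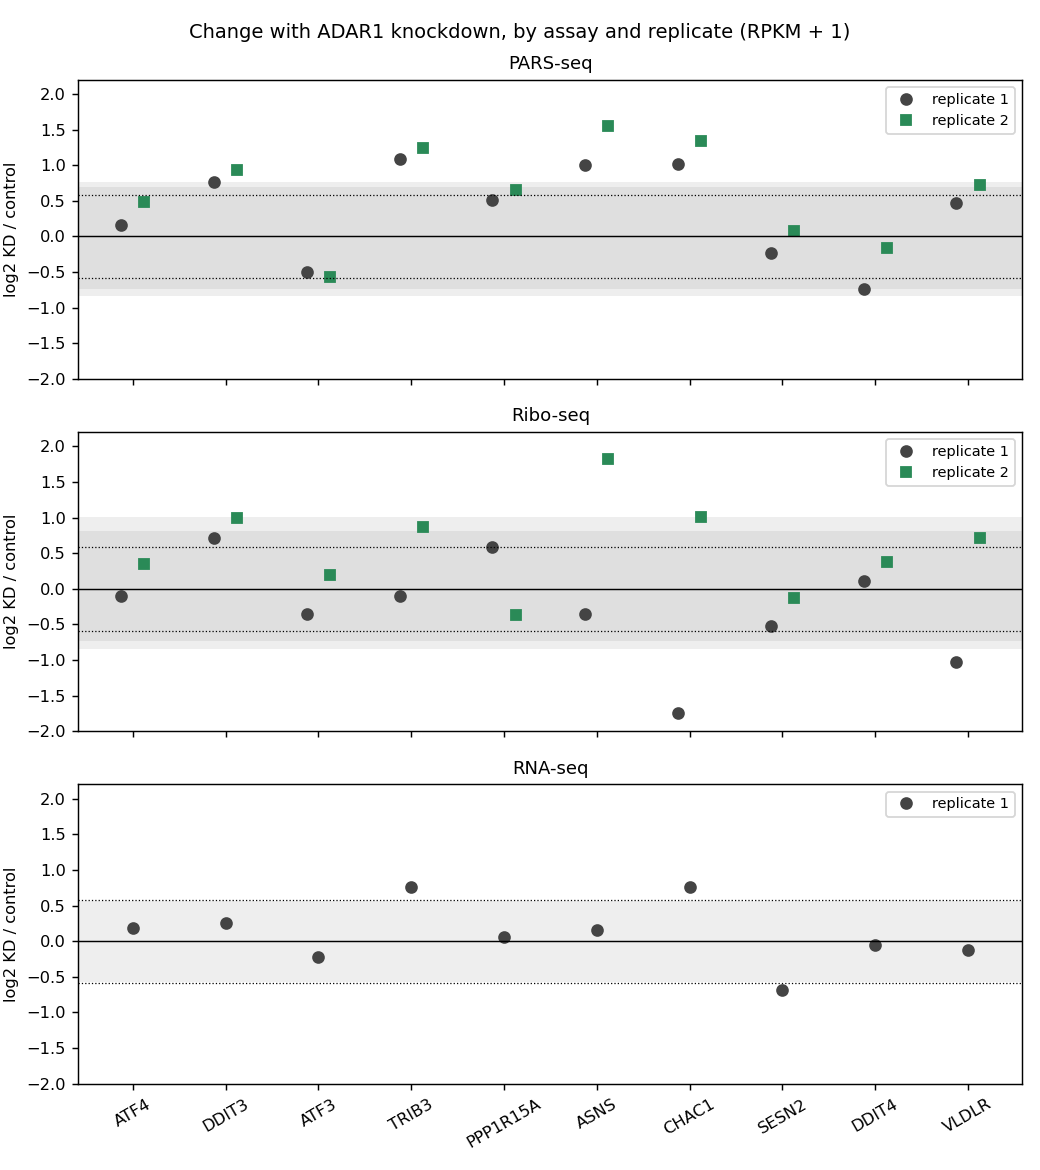
Log2 ratio of KD to control for each gene in PARS-seq, Ribo-seq and RNA-seq, on RPKM with 1 added and with 1 symbol per replicate. Grey bands hold the central 90% of all genes, overlaid for both replicates, and dotted lines mark 1.5-fold. In PARS-seq both replicates of TRIB3, ASNS and CHAC1 lie above the band, and in RNA-seq TRIB3, CHAC1 and SESN2 pass 1.5-fold. In Ribo-seq the replicates of ATF4, ATF3, TRIB3, PPP1R15A, ASNS, CHAC1 and VLDLR lie on opposite sides of 0.

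For single genes, folds are plain ratios of RPKM. Among the transcription factors, ATF4 is the effector whose translation rises under eIF2 phosphorylation. Its PARS-seq level was 93.0 and 94.5 RPKM in control and 104 and 133 RPKM in KD, and RNA-seq gave 146 and 166 RPKM. Both KD values exceeded both controls by PARS-seq, as in 33.3% of all genes, by 1.122-fold in replicate 1 and 1.40-fold in replicate 2. By Ribo-seq ATF4 had 15.9 and 53.9 RPKM in control (32 and 362 reads) and 14.8 and 68.9 RPKM in KD (42 and 335 reads). Replicate number, rather than condition, separated these Ribo-seq values.

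DDIT3 encodes CHOP, a factor that ATF4 induces and that is linked to cell death in prolonged stress. It had 13.3 and 15.4 RPKM in control and 23.2 and 30.4 RPKM in KD by PARS-seq, and 11.6 and 14.05 RPKM by RNA-seq. Its Ribo-seq values were 2.56 and 3.58 RPKM in control (3 and 14 reads) and 4.84 and 8.12 RPKM in KD (8 and 23 reads). DDIT3 was the only member above 1.5-fold in both replicates of both PARS-seq and Ribo-seq, with ratios of 1.74 and 1.98 in PARS-seq and 1.89 and 2.27 in Ribo-seq, although Ribo-seq control replicate 1 held 3 reads, for which the 95% Poisson interval (counting error only) is 0.527 to 7.47 RPKM. ATF3, a stress-induced factor of the same basic leucine zipper family, went the other way in PARS-seq, with 17.2 and 16.7 RPKM in control and 11.9 and 10.9 RPKM in KD. RNA-seq gave 6.60 and 5.51 RPKM. By Ribo-seq ATF3 was 2.76 and 5.56 RPKM in control (7 and 47 reads) and 1.96 and 6.54 RPKM in KD (7 and 40 reads), so the groups overlapped there.

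TRIB3 and PPP1R15A limit the response. TRIB3 is a pseudokinase induced by ATF4 and CHOP that restrains ATF4. It had 22.6 and 29.4 RPKM in control and 49.2 and 70.8 RPKM in KD by PARS-seq, and 41.0 and 70.0 RPKM by RNA-seq, a ratio of 1.71. By Ribo-seq it had 13.1 and 18.8 RPKM in control (32 and 153 reads) and 12.2 and 35.1 RPKM in KD (42 and 207 reads). TRIB3 was thus higher in KD in both PARS-seq replicates, in RNA-seq and in Ribo-seq replicate 2, but not in Ribo-seq replicate 1. PPP1R15A encodes GADD34, which directs phosphatase 1 to eIF2. Its values were 16.7 and 17.0 RPKM in control and 24.1 and 27.2 RPKM in KD by PARS-seq, and 33.9 and 35.4 RPKM by RNA-seq. Its Ribo-seq values, 4.64 and 8.59 RPKM in control (11 and 68 reads) and 7.47 and 6.46 RPKM in KD (25 and 37 reads), overlapped between the groups.

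ASNS and CHAC1 act on amino acids and glutathione. ASNS, asparagine synthetase, had 28.2 and 30.5 RPKM in control and 57.7 and 91.6 RPKM in KD by PARS-seq, ratios of 2.05 and 3.002. By RNA-seq it had only 7.99 and 9.03 RPKM, a ratio of 1.13. Its Ribo-seq values were 36.6 and 12.9 RPKM in control (92 and 108 reads) and 28.5 and 47.9 RPKM in KD (101 and 291 reads). The Ribo-seq replicates thus gave opposite directions, 0.778-fold in replicate 1 and 3.72-fold in replicate 2. CHAC1 degrades glutathione. It had 3.28 and 4.48 RPKM in control and 7.66 and 12.9 RPKM in KD by PARS-seq, ratios of 2.34 and 2.89, and 6.11 and 11.1 RPKM by RNA-seq, a ratio of 1.81. By Ribo-seq it had 3.86 and 5.98 RPKM in control (6 and 31 reads), and 0.456 and 13.1 RPKM in KD (1 and 49 reads). The value in KD replicate 1 rests on a single read, with a 95% Poisson interval of 0.0116 to 2.54 RPKM.

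SESN2 and DDIT4 restrain mTORC1, the kinase complex that drives growth, and neither was higher in KD in both PARS-seq replicates. SESN2 had 8.87 and 9.42 RPKM in control and 7.44 and 9.97 RPKM in KD by PARS-seq. By RNA-seq it had 12.6 RPKM in control (1804 reads) and 7.41 RPKM in KD (790 reads). Their Poisson intervals, 11.98 to 13.1 and 6.90 to 7.95 RPKM, did not overlap, but they compare 2 libraries, not the conditions. By Ribo-seq SESN2 had 6.26 and 5.37 RPKM in control (22 and 63 reads) and 4.04 and 4.83 RPKM in KD (20 and 41 reads), and it was the only member lower in KD without overlap there, against 7.12% of all genes. DDIT4 had 295 and 210 RPKM in control and 177 and 188 RPKM in KD by PARS-seq, 276 and 265 RPKM by RNA-seq, and 142 and 129 RPKM in control (247 and 751 reads) against 154 and 168 RPKM in KD (378 and 706 reads) by Ribo-seq. DDIT4 was therefore lower in KD without overlap in PARS-seq, as were 27.1% of all genes, and higher without overlap in Ribo-seq. DDIT3 and DDIT4 were the 2 members higher without overlap in Ribo-seq, against 10.7% of all genes.

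VLDLR is a lipoprotein receptor that ATF4 signalling can induce. It had 9.84 and 6.94 RPKM in control and 14.03 and 12.1 RPKM in KD by PARS-seq, and 4.47 and 4.01 RPKM by RNA-seq. Its Ribo-seq values, 11.6 and 5.88 RPKM in control (43 and 73 reads) and 5.14 and 10.2 RPKM in KD (27 and 92 reads), overlapped, with ratios of 0.445 and 1.74 in the replicates.

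In Ribo-seq, 1 of the 10 members (DDIT3) was more than 1.5-fold higher in KD in both replicates, against 2.67% of all genes, and 0 were lower, against 1.81%. DDIT3 did not pass with 5 RPKM added, and it lies below a mean of 5 RPKM. The members' median log2 ratio was −0.22 in replicate 1, where 7 of 10 were below 0, and 0.54 in replicate 2, where 8 of 10 were above 0 (all genes −0.02 and 0.16). Replicate 2 is the pair whose KD library was not below both controls for ADAR. With limma on log2(RPKM + 1) and Benjamini-Hochberg adjustment, 0 of 10882 genes were called at an adjusted p under 0.05 (0% in each direction), and 43 had an unadjusted p under 0.05, none of them a member. This fit ignores the replicate number. With a replicate block 85 genes were called higher and 58 lower, again none of them a member. The largest fitted difference among the members was that of DDIT3, higher in KD by 0.85 ± 0.44 (SE, 95% interval −0.26 to 1.97, n = 2 per group), with an adjusted p of 0.9999 by limma. Without the library labelled KD replicate 2 it was 0.53 (limma adjusted p = 1). The standard errors of the other members ran from 0.38 (SESN2) to 1.09 (CHAC1). For every member but SESN2, whose upper bound was 0.65, the 95% interval included a 2-fold rise as well as 0.

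The ratio of Ribo-seq to RNA-seq, the study's measure of translation efficiency, placed members at both ends of all genes. It is given as log2 of the RPKM values, each with 1 added, and both Ribo-seq replicates of a condition were set against the same RNA-seq library. The study computed it from normalised counts, only for genes above a minimum of reads in both assays. No such minimum was set here, and single Ribo-seq libraries held as few as 1 read (CHAC1) or 3 reads (DDIT3). ATF4 had log2 ratios of −3.12 and −1.42 in control, at percentiles 1.03 and 16.9 of 10142 genes, and −3.41 and −1.26 in KD, at percentiles 1.37 and 24.5. PPP1R15A, whose mRNA also carries upstream reading frames, had −2.63 and −1.86 in control and −2.10 and −2.29 in KD, at percentiles 2.83 to 9.78. At the other end, ASNS had 2.06 and 0.63 in control and 1.56 and 2.29 in KD, at percentiles 90.8 to 98.9. VLDLR had 1.199 and 0.33 in control and 0.29 and 1.16 in KD, at percentiles 68.0 to 92.0. The medians over all genes were −0.38 and −0.61 in control and −0.36 and −0.44 in KD. Thus ASNS and VLDLR lay above the median of all genes in all 4 Ribo-seq libraries, and ATF4, DDIT3, TRIB3, PPP1R15A, SESN2 and DDIT4 lay below it in all 4, whereas ATF3 and CHAC1 fell on both sides.

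**Figure D3:**
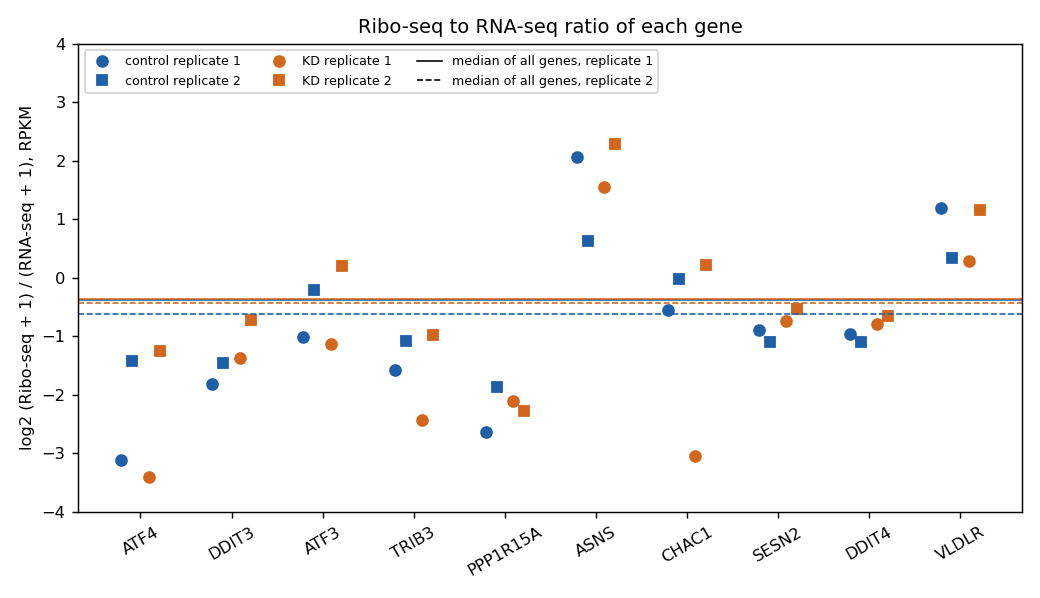
Log2 ratio of Ribo-seq to RNA-seq (RPKM with 1 added to each) for each gene and Ribo-seq library, with control in blue, KD in orange and the replicate number given by the symbol. Horizontal lines are the medians of 10142 genes in each library. ATF4 and PPP1R15A lie below these lines and ASNS and VLDLR above them in all 4 libraries.

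Both KD ratios lay above both control ratios for 3 of the 10 members, against 11.3% of all genes, and below them for 0, against 8.26%. These were DDIT3, from −1.82 and −1.46 (control) to −1.37 and −0.72 (KD), DDIT4, from −0.96 and −1.09 to −0.78 and −0.66, and SESN2, from −0.90 and −1.09 to −0.74 and −0.53. SESN2 itself was lower in KD in both Ribo-seq and RNA-seq. In a limma model with assay, condition and their interaction, 0 of 10142 genes were called (0% in each direction) and 2 had an unadjusted p under 0.05. The change of the ratio of DDIT3 was 0.60 ± 0.79 (SE, 95% interval −1.36 to 2.56, limma adjusted p = 0.9999), and that of ATF4 was −0.06 ± 1.61 (95% interval −4.04 to 3.92, limma adjusted p = 0.9999). These intervals assume that an RNA-seq library varies as a Ribo-seq library does. Without 1 Ribo-seq library in turn, the change of DDIT3 was 0.27 to 0.92.

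PARS-seq read starts, the number of reads whose 5′ end falls on each base, could be summed per library for 3 members, ATF4, TRIB3 and DDIT4. Their transcripts are named in the study's list of transcripts selected for a change of structure in these same samples, so these 3 are not a neutral choice, and the other 7 members were not analysed at this level. Sums were divided by the TMM-scaled library size, in units of 1000000 read starts (normalised read starts), and tested by limma within each enzyme. TRIB3 had 21.7 and 25.4 normalised read starts in S1 control and 53.0 and 71.2 in S1 KD (2887 and 2927 read starts against 5789 and 5759). In V1 it had 38.3 and 51.3 in control and 74.6 and 114 in KD. TRIB3 rose with KD in both digests, by 1.39 ± 0.22 on the log2 scale in S1 (SE, 2.62-fold, n = 2 per group, limma adjusted p = 0.0001183) and by 1.06 ± 0.25 in V1 (2.08-fold, limma adjusted p = 0.0225). Of all transcripts tested, 6.48% of 4721 in S1 and 3.91% of 16885 in V1 rose, and 9.28% and 6.52% fell. These shares depend on the processing: the 306 transcripts that rose in S1 became 34 with library totals, 124 without S1 control replicate 1 and 203 without S1 KD replicate 2, and the 660 in V1 became 346 with library totals, 364 without V1 KD replicate 2 and 1555 without V1 control replicate 2. In V1 the call of TRIB3 did not hold with library totals in place of TMM (0.90, limma adjusted p = 0.05732) or without V1 KD replicate 2 (0.79, limma adjusted p = 0.07315).

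ATF4 had 108 and 124 normalised read starts in S1 control and 131 and 173 in S1 KD, and 160 and 168 in V1 control and 178 and 243 in V1 KD. KD values lay above the controls in both digests, but the share of all transcripts that did so was not computed. The difference of ATF4 did not pass the test, at 0.38 ± 0.22 in S1 (limma adjusted p = 0.2685) and 0.34 ± 0.21 in V1 (limma adjusted p = 0.3535). With library totals the S1 difference of ATF4 was −0.039. DDIT4 had 337 and 247 normalised read starts in S1 control and 191 and 220 in S1 KD, and 222 and 159 in V1 control and 142 and 141 in V1 KD. Its log2 differences were −0.49 ± 0.23 in S1 (limma adjusted p = 0.1587) and −0.41 ± 0.22 in V1 (limma adjusted p = 0.2689), and with library totals the S1 difference was −0.91 (limma adjusted p = 0.01754). With a replicate block the V1 difference of DDIT4 passed, while many more of all transcripts were called too, as given in the closing section. A single transcript took 26.0% and 35.9% of the read starts in S1 control and 45.0% and 42.2% in S1 KD. In V1 it took 34.6% and 42.2% in control and 54.7% and 42.4% in KD. The part of this transcript in these differences was not tested. Without 1 library in turn, the difference of ATF4 was 0.18 to 0.58 in S1 and 0.15 to 0.59 in V1, and that of DDIT4 was −0.71 to −0.27 in S1 and −0.65 to −0.17 in V1. An interaction test chosen after seeing the data used the 4721 transcripts listed in all 8 libraries, over which the V1 differences were 0.52 for ATF4, 1.23 for TRIB3 and −0.24 for DDIT4. There the change with KD did not differ detectably between S1 and V1 for any of the 3, at 0.13 ± 0.29 for ATF4, −0.16 ± 0.38 for TRIB3 and 0.26 ± 0.28 for DDIT4 (limma adjusted p = 0.9999 for each).

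**Figure D4:**
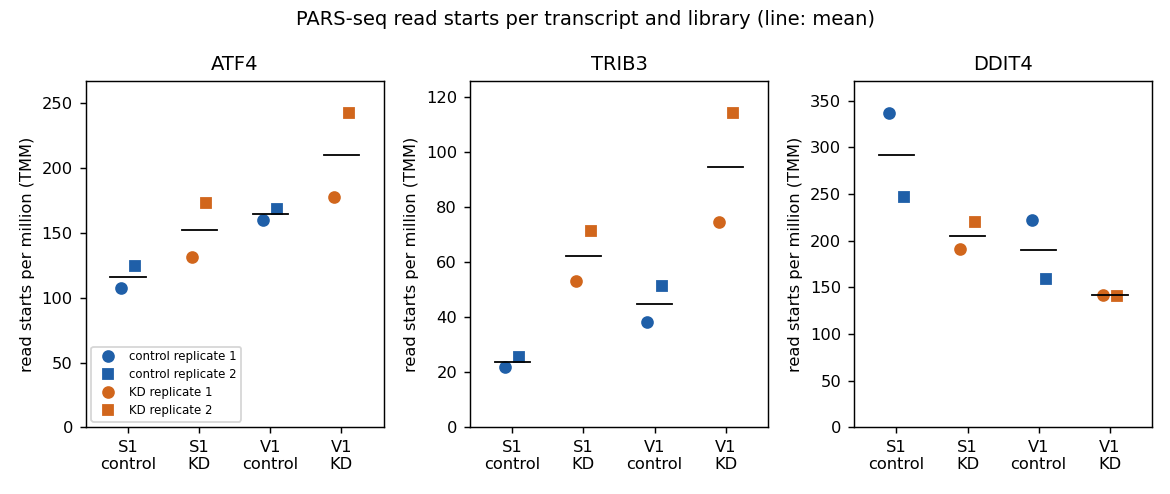
PARS-seq read starts, scaled by TMM, for ATF4, TRIB3 and DDIT4 in each S1 and V1 library, with control in blue, KD in orange, the replicate number given by the symbol and a line at the mean of each group. TRIB3 rises from 21.7 and 25.4 to 53.0 and 71.2 in S1 and from 38.3 and 51.3 to 74.6 and 114 in V1, and DDIT4 lies lower in KD in both digests.

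The position of read starts along the 3 transcripts, each cut into 5 segments of equal length numbered from the 5′ end, differed between genes and enzymes. In ATF4 (1420 bases) segment 2 held the largest share in S1, 28.4% to 35.0%. In DDIT4 (1752 bases) segment 2 held 68.9% and 64.9% of S1 read starts for control and 56.9% and 56.4% for KD, and base 591 alone held 15.7% to 21.6%. The 4 S1 libraries of DDIT4 thus shared 1 dominant base, and the share of segment 2 was lower in both KD libraries. In TRIB3 (2469 bases) read starts leaned to the 3′ end. Segment 5 held 28.0% and 52.8% of its S1 read starts for control and 41.0% and 50.9% for KD, and 48.4% and 68.0% of its V1 read starts for control and 49.8% and 66.1% for KD. In V1 these shares followed the replicate number rather than the condition. Over the bases of a transcript, Spearman's rho between the replicates of 1 condition was set beside that of control against KD within an enzyme. For ATF4 replicates gave 0.798 and 0.813 in S1 and 0.841 and 0.888 in V1, and control with KD 0.792 to 0.824 and 0.852 to 0.871. For DDIT4 replicates gave 0.705 and 0.745 in S1 and 0.7998 and 0.803 in V1, and control with KD 0.706 to 0.728 and 0.801 to 0.835. For TRIB3 replicates gave 0.512 and 0.623 in S1 and 0.570 and 0.681 in V1, and control with KD 0.564 to 0.598 and 0.612 to 0.643. Control and KD libraries thus went outside the replicates' range at both ends for ATF4 in S1, and above it for DDIT4 in V1. Between S1 and V1 libraries rho was 0.286 to 0.359 for ATF4, 0.154 to 0.258 for TRIB3 and 0.136 to 0.268 for DDIT4. TRIB3 had the fewest read starts per base, 1.17 to 5.99 on average, so its profile was the least precise of the 3.

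**Figure D5:**
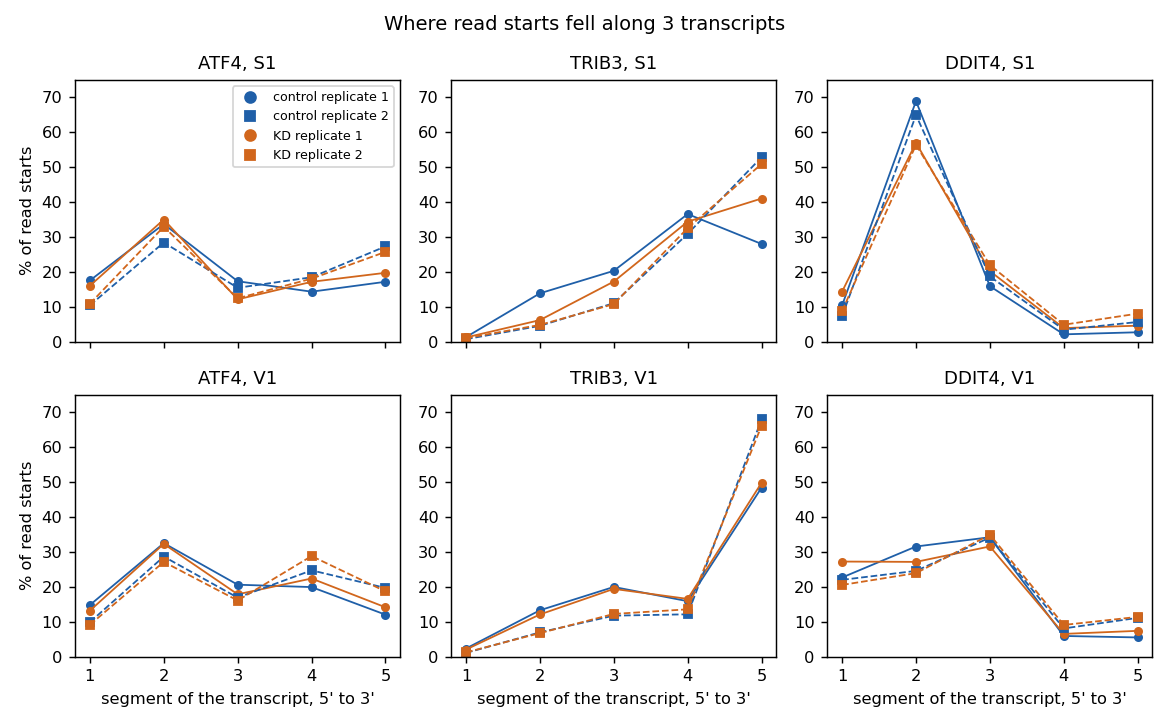
Share of S1 (top) and V1 (bottom) read starts, in percent, in each of 5 equal segments of the ATF4, TRIB3 and DDIT4 transcripts from 5′ to 3′, with control in blue, KD in orange, replicate 1 as circles with solid lines and replicate 2 as squares with dashed lines. DDIT4 peaks in segment 2 in S1, and TRIB3 in segment 5 in V1, where the lines group by replicate number.

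The other genes of the pathway were read from 5 lists. These too were chosen with earlier results of these data known, so the shares of all genes beside their counts are no independent test. In the core of the response (kinases, eIF2, eIF2B, a phosphatase subunit and IMPACT, which restrains the kinase GCN2), 0 of 14 were more than 1.5-fold higher in KD in both PARS-seq replicates (5.88% of all genes) and 2 were lower (6.05% of all genes), EIF2B2 (23.7 and 17.3 RPKM in control, 9.02 and 7.91 RPKM in KD) and EIF2B1 (24.2 and 24.8 RPKM in control, 14.4 and 14.7 RPKM in KD). Both encode subunits of eIF2B, the exchange factor that phosphorylated eIF2 inhibits, and RNA-seq gave 41.7 and 24.1 RPKM for EIF2B2 and 41.9 and 20.8 RPKM for EIF2B1. The 2 with the highest mean ratio were EIF2S3, the gamma subunit of eIF2 (61.5 and 72.3 RPKM in control, 84.4 and 101 RPKM in KD), and EIF2AK2, which encodes the double-stranded RNA sensor PKR (44.7 and 44.4 RPKM in control, 69.2 and 54.9 RPKM in KD). EIF2AK2 was also above 1.5-fold in both Ribo-seq replicates, with 10.2 and 6.10 RPKM in control and 24.9 and 10.2 RPKM in KD, but in Ribo-seq 0 of the 14 were called by limma.

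Of 16 genes of amino acid supply, 3 (GPT2, PSAT1 and PSPH) were more than 1.5-fold higher in KD in both PARS-seq replicates and 0 lower, against the same 5.88% and 6.05% of all genes. PSPH, the last enzyme of serine synthesis, had 35.5 and 30.2 RPKM in control and 82.4 and 73.0 RPKM in KD, and GPT2, a mitochondrial alanine aminotransferase, had 3.23 and 5.63 RPKM in control and 8.07 and 11.6 RPKM in KD. At the lower end were the transporters SLC38A2 (215 and 169 RPKM in control, 146 and 101 RPKM in KD) and SLC7A11 (65.1 and 101 RPKM in control, 47.7 and 65.7 RPKM in KD). Of 11 tRNA charging genes, 3 (CARS, WARS and XPOT) were higher by this rule (5.88% of all genes) and 0 lower (6.05%). WARS, the tryptophanyl-tRNA synthetase, had 85.8 and 85.7 RPKM in control and 183 and 224 RPKM in KD, CARS, the cysteinyl-tRNA synthetase, 29.8 and 29.0 against 48.1 and 62.3 RPKM, while NARS (142 and 147 against 142 and 147 RPKM) and SARS (50.01 and 48.2 against 40.0 and 49.5 RPKM) stood lowest. WARS and CARS also passed 1.5-fold in both Ribo-seq replicates, with 93.1 and 39.4 RPKM in control and 157 and 108 RPKM in KD for WARS.

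Of 11 other ATF4 targets besides FGF21, 3 (CEBPG, INHBE and JDP2) were higher (5.88% of all genes) and 0 lower (6.05%) by this rule. FGF21 was higher too, but with a control mean of 0.320 RPKM it reached the mean of 1 RPKM only through its KD values and is not counted. INHBE, an activin subunit, had 1.87 and 2.51 RPKM in control and 9.48 and 15.3 RPKM in KD, and the hormone gene FGF21 had 0.277 and 0.362 against 1.90 and 2.78 RPKM. GDF15, a stress-induced hormone (299.97 and 295 against 160 and 228 RPKM, in a row shared with a microRNA), and ATF5, a factor related to ATF4 (6.92 and 8.45 against 6.01 and 7.003 RPKM, likewise a shared row), were lowest. Of the 8 genes of the other unfolded protein response arms that reached a mean of 1 RPKM (of 10), 0 were higher (5.88% of all genes) and 2 lower (6.05%), the chaperone genes HSPA5 (299 and 278 RPKM in control, 162 and 144 RPKM in KD) and DNAJB9 (7.69 and 6.86 against 3.78 and 3.48 RPKM). MBTPS1 (21.1 and 17.9 against 27.1 and 23.8 RPKM) and ATF6 (17.0 and 15.0 against 18.7 and 17.2 RPKM) were its highest. ATF6B is listed at 0 in all PARS-seq columns and in Ribo-seq replicate 2 of both conditions, but at 31.9 and 29.7 RPKM in Ribo-seq replicate 1 and 65.8 and 76.6 RPKM in RNA-seq. Of the 21574 rows, 17 are at 0 in the first set of columns with at least 1 RPKM in each of the second, and 14 the reverse. The study's methods name RefSeq transcripts and the same counting command for PARS-seq, Ribo-seq and RNA-seq, and the part of these rows in other differences was not tested. The reads of each of the 10 members came out whole in all 6 Ribo-seq and RNA-seq libraries with 1 length per gene. The median log2 ratios in PARS-seq replicates 1 and 2 were −0.01 and 0.19 for the core, 0.20 and 0.45 for amino acid supply, 0.26 and 0.57 for tRNA charging, 0.51 and 0.48 for the other ATF4 targets without FGF21 and −0.13 and −0.08 for the other arms. The limma fit to the PARS-seq columns called 0 higher and 2 lower in the core (EIF2B1 and EIF2B2), 4 and 0 in amino acid supply (GPT2, PHGDH, PSAT1 and PSPH), 4 and 0 in tRNA charging (CARS, GARS, WARS and XPOT), 4 and 0 in the other ATF4 targets besides FGF21 (CEBPG, EIF4EBP1, INHBE and JDP2) and 0 and 2 in the other arms (DNAJB9 and HSPA5), against 8.06% and 7.43% of all genes. Without the filter on low values the calls left were PSPH, WARS, CEBPG and FGF21, all higher, against 1.16% higher and 1.71% lower of 19048 genes. By RNA-seq, where 4.47% of all genes were more than 1.5-fold higher and 4.66% lower, the counts higher and lower were 0 and 2 of the core genes, 0 and 2 of amino acid supply, 1 and 0 of tRNA charging, 3 and 1 of the other ATF4 targets and 0 and 0 of the other arms. In Ribo-seq, where 2.67% of all genes were more than 1.5-fold higher in both replicates and 1.81% lower, these counts were 1 and 0 in the core (EIF2AK2), 0 and 0 in amino acid supply, 2 and 0 in tRNA charging (CARS and WARS), 1 and 1 in the other ATF4 targets (INHBE and NUPR1) and 0 and 0 in the other arms. NUPR1, a small stress-induced nuclear protein, had 42.9 and 74.9 RPKM in control against 25.8 and 45.6 RPKM in KD. In Ribo-seq, limma called 0 genes of the 5 lists (0% of all genes), and 1 of the tRNA charging genes and 1 of the other ATF4 targets had an unadjusted p under 0.05.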

How the data were processed

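The deposited RPKM table gives RPKM (reads per kilobase and per 1000000 reads), computed by the authors from uniquely aligned Bowtie2 reads (hg19) counted per RefSeq gene; its PARS-seq columns are the authors' means of an S1 and a V1 library. The authors also deposited, per PARS-seq library, the number of read starts at each base of UCSC knownCanonical transcripts (adapters trimmed with cutadapt per the labels). No column of values was left unassigned.

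The members and gene lists were chosen with earlier results of these data known. Named genes are the 10 members, ADAR, and in each other list the 2 highest and 2 lowest by mean PARS-seq log2 ratio, besides those past 1.5-fold (PSAT1, XPOT, CEBPG, JDP2, NUPR1, PHGDH, GARS, EIF4EBP1, IMPACT and ATF6B were named after their values were seen). Ratios used a pseudocount of 1 RPKM, which understates changes of low genes, and genes with a mean of at least 1 RPKM. Ribo-seq was tested with limma 3.58.1 (R 4.3.3) with a mean trend and Benjamini-Hochberg adjustment at 0.05, without a replicate block. Read starts were summed per transcript (at least 10 in 2 libraries at the median depth and 15 in total), 0.5 was added, and TMM was computed from its published definition. The libraries list 21052 to 22402 transcripts, except for 4722 in S1 control replicate 1, with 96618292 to 214584779 read starts in each library. The PARS-seq RPKM columns were compared by their ratios, and the same limma fit was added after seeing the data. RNA-seq has 1 library per condition and was not tested; at 2 against 2 the smallest p of an exact permutation test is 0.333. Reads behind the RPKM of members were recovered as whole numbers (within 0.05) from library size and gene length. Scripts were tested on simulated data. Python 3.11.15, pandas 2.3.3, scipy 1.17.1 and matplotlib 3.10.9 were used. Alternatives covered pseudocount, filters, scaling, the block and leaving out each library.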

Additional observations from a re-analysis of the deposited data

How the results depend on the processing

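Counts of members past 1.5-fold in PARS-seq, Ribo-seq and RNA-seq were the same with a pseudocount of 0.1 and with centred libraries. All 10 members passed the filter on low values in each assay, so dropping it could not change these counts. Among alternatives chosen after seeing the data, a pseudocount of 5 gave 0 members higher in Ribo-seq and 1 higher and 0 lower in RNA-seq. A mean of at least 5 RPKM, which leaves DDIT3 out, gave 0 higher in Ribo-seq. The PARS-seq counts were the same with a pseudocount of 5, but CHAC1 reached a mean of 5 RPKM only through its KD values, so that filter shows nothing for it. In Ribo-seq CHAC1 had as few as 1 read, but the standard error did not follow the reads: it was 0.95 for ATF4 (32 to 362 reads) and 0.44 for DDIT3 (3 to 23 reads), and the 95% Poisson intervals of the ATF4 controls, 10.9 to 22.4 and 48.5 to 59.7 RPKM, did not overlap. Replicate numbers are shared across conditions, but the labels do not say what they mark. Deviations from the group means of same-numbered libraries correlated at 0.811 over genes in Ribo-seq, 0.658 in PARS-seq RPKM, 0.467 in S1 and 0.388 in V1. With a replicate block limma called 85 genes higher and 58 lower in Ribo-seq, 1 higher and 3 lower for the ratio of Ribo-seq to RNA-seq, 693 and 755 transcripts in S1 and 2646 and 3241 in V1, where DDIT4 then passed (limma adjusted p = 0.02272); in PARS-seq RPKM it called 3129 and 2527, with ATF3 (limma adjusted p = 2.325e-05), DDIT4 (0.01029) and VLDLR (8.206e-07) passing; no other call of a member changed. With library totals 34 transcripts were higher and 673 lower in S1 and 346 higher in V1, against 306, 438 and 660 with TMM. Over the transcripts listed in all 8 libraries, 179 were higher and 336 lower in V1, against 660 and 1101. In the PARS-seq RPKM fit, 899 genes were higher and 829 lower, but 221 and 325 without the filter on low values and 526 higher with a mean of at least 5 RPKM. The CHAC1 difference in Ribo-seq was 0.0090 with a pseudocount of 5, that of PPP1R15A in the ratio −0.029 with centred libraries, and that of ATF4 in S1 −0.039 with library totals. The cause was not tested.

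Leaving out each library in turn, S1 gave 124 to 420 transcripts higher and 266 to 458 lower, and V1 364 to 1555 and 681 to 1945; the low counts came without S1 control replicate 1 (124 and 266) and without V1 KD replicate 2 (364 and 681), and S1 also gave 203 and 275 without S1 KD replicate 2. The high V1 counts came without V1 control replicate 2. TRIB3 kept its direction, from 1.18 to 1.60 in S1 and from 0.79 to 1.39 in V1; ATF4 (0.18 to 0.58 and 0.15 to 0.59) and DDIT4 (−0.71 to −0.27 and −0.65 to −0.17) kept theirs. PARS-seq RPKM gave 584 to 1319 genes higher and 570 to 1252 lower, the low counts without KD replicate 2 and the high ones without control replicate 2, and the differences were −0.26 to 0.11 (SESN2), 0.15 to 0.495 (ATF4), −0.69 to −0.20 (DDIT4) and 0.37 to 0.82 (VLDLR). In Ribo-seq 0 genes were called in any of these fits, and for the ratio 0 to 1 were higher. Members that changed sign in Ribo-seq ran from −0.95 to 1.199 (ATF4), −0.75 to 0.60 (ATF3), −0.34 to 1.11 (TRIB3), −2.0001 to 1.27 (CHAC1), −0.27 to 0.50 (PPP1R15A) and −0.60 to 0.27 (VLDLR), while ASNS ran from 0.015 to 1.45 and DDIT3 from 0.53 to 1.18. For the ratio the ranges were −1.13 to 1.01 (ATF4), −0.53 to 0.82 (ATF3), −1.10 to 0.35 (TRIB3), −0.14 to 1.30 (ASNS), −2.77 to 0.51 (CHAC1), −0.33 to 0.44 (PPP1R15A) and −0.47 to 0.40 (VLDLR). A fit with 1 library in a group assumes that it varies as the others do.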
